A study of Mus musculus with 15 samples.

Results

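PD032 was added to an Aurora A inhibitor in 3 libraries of mouse embryonic stem cells (PD032+ Aurka inh, called the combination here), and these were set against 3 libraries with the Aurora A inhibitor alone (Aurka inh). These are 6 of the 15 libraries of the series, chosen by their labels and not by any measured value. All 6 came from E14 cells, a wild-type embryonic stem cell line in wide use, embedded in Matrigel low in growth factors under N2B27, a serum-free medium to which the inhibitors were added. Another 3 libraries had PD032 without the Aurora inhibitor in the same gel and medium, and their levels are given beside those of named genes. Before the experiment the cells of every group had been kept in Lif at 4 ng/ml with PD0325901 at 0.4 µM, a MEK inhibitor, and CHIR99021 at 3 µM, a GSK3 inhibitor, so all had earlier been exposed to both. The labels do not spell out PD032, and neither the Aurora compound nor any dose or time is given there. They also do not say whether the 3 libraries of a group came from separate cultures, so p-values measure the spread between libraries, which may be technical.

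PD0325901 blocks MEK, the kinase that activates ERK. In mouse embryonic stem cells ERK is driven mainly by FGF4 that the cells secrete themselves, and it moves them from the naive state of the early epiblast towards the formative state that precedes lineage choice. ERK also induces its own inhibitors, the Sprouty and Spred proteins and the dual specificity phosphatases, so the RNA of these genes is widely read as a gauge of ERK output. Aurora A is a mitotic kinase that acts at centrosomes and the spindle. An inhibitor acts on a protein, so the RNA of Aurka says nothing of whether it worked.

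The count totals were 21843737, 19304585 and 24202544 in the combination, against 21691325, 16010904 and 18949791 in Aurka inh. The library numbered 2 stood apart in the combination, in Aurka inh and in PD032. Over 10226 genes, its deviation from the group mean fell with exonic length in each (Spearman rho -0.416, -0.408 and -0.449), while in the other 6 libraries rho lay between 0.029 and 0.48. These correlations run across genes, which are not independent replicates. On the first principal component (53.1% of variance), PD032 alone lay at -60.59 to -52.74 and the combination at 33.57 to 38.7. Library 2 of Aurka inh (33.56) lay closer to the combination there than the other Aurka inh libraries did (16.05 and 16.37). The second component (27.2%) parted the combination, at -38.76 to -26.73, from every Aurka inh library, at 23.29 to 49.47. Library 2 of Aurka inh, at 23.29, was again the closest of its group. Because library 2 stood apart, calls were also computed without the 3 libraries numbered 2. The cells carried embryonic stem cell RNA in both groups: 10 defining markers summed to between 3718 and 4106 CPM (counts scaled to a total of 1000000) in the combination, against 2933 to 3484 CPM in Aurka inh, with none at 0.

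The stretches upstream of 3 genes are shown because 2 of them, Dusp6 and Spred3, encode ERK feedback inhibitors that fell together, and Cyp1a1 had the largest rise among the genes named for their size of change. They are the 250 bases before the RefSeq start (GRCm38.p6), 5′ to 3′ on the gene's strand, at chr10:99262981-99263230 (plus strand) for Dusp6, chr7:29168648-29168897 (minus strand) for Spred3 and chr9:57697363-57697612 (plus strand) for Cyp1a1. Capitals mark GGAA or its reverse complement TTCC, the core that ETS factors recognise, in Dusp6 and Spred3. In Cyp1a1 they mark GCGTG, the core of the element bound by the aryl hydrocarbon receptor, searched together with CACGC.
Dusp6: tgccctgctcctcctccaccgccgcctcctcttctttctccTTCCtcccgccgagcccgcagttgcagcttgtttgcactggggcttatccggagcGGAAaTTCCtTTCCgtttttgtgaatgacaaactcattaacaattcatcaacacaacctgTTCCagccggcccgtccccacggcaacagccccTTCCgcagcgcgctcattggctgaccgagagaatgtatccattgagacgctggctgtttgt
Spred3: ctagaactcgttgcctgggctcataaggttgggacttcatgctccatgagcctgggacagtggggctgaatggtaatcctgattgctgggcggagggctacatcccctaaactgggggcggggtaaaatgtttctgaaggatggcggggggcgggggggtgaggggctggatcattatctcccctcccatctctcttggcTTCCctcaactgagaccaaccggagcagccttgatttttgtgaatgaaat
Cyp1a1: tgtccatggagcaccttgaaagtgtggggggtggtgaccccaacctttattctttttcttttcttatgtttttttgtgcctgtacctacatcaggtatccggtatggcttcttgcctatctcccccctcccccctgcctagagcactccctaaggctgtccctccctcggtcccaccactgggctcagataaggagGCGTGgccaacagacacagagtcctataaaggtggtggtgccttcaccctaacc
The Dusp6 window held 6 ETS cores and the Spred3 window 1. Among all 32851 windows of this length in the RefSeq table, 93.4% held at least 1 ETS core and the median was 3. The Cyp1a1 window held 1 GCGTG, 54 bases before the start counted from its first base, and 28.2% of all windows held that core on either strand. A match describes the letters only and shows no binding. The Spred3 and Cyp1a1 windows lie inside the GENCODE spans of their genes, chr7:29158829-29170411 and chr9:57687928-57703824. Those spans begin further upstream than the RefSeq start, so the windows may not cover every start of the counted genes.

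Of 14837 genes tested, 2086 were higher in the combination (14.1%) and 1944 lower (13.1%), together 27.2%, in the quasi-likelihood test of edgeR at a Benjamini-Hochberg adjusted p under 0.05. The median log2 fold change over all genes was -0.01, and the called genes had a median absolute change of 0.62 on the log2 scale. At least 2-fold changes numbered 467 higher and 728 lower, and at least 4-fold changes 86 higher and 206 lower. The libraries of the groups did not overlap for 40.3% of all genes tested. Libraries of equal replicate number deviated from their group means together, least clearly for number 3. With replicate number as a block, 3547 genes were higher (23.9%) and 3634 lower (24.5%), and all 4030 genes of the unblocked fit were among them with the same sign. Without the 3 libraries numbered 2 the counts were 2745 and 2694, and 95.5% of the 4030 were called again. The lowest counts came without library 3 of Aurka inh, at 1398 higher and 1211 lower. Counts within each gene list below stand against the shares over all genes. These were 14.1% higher and 13.1% lower without the block, and 23.9% and 24.5% with it.

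**Figure D1:**
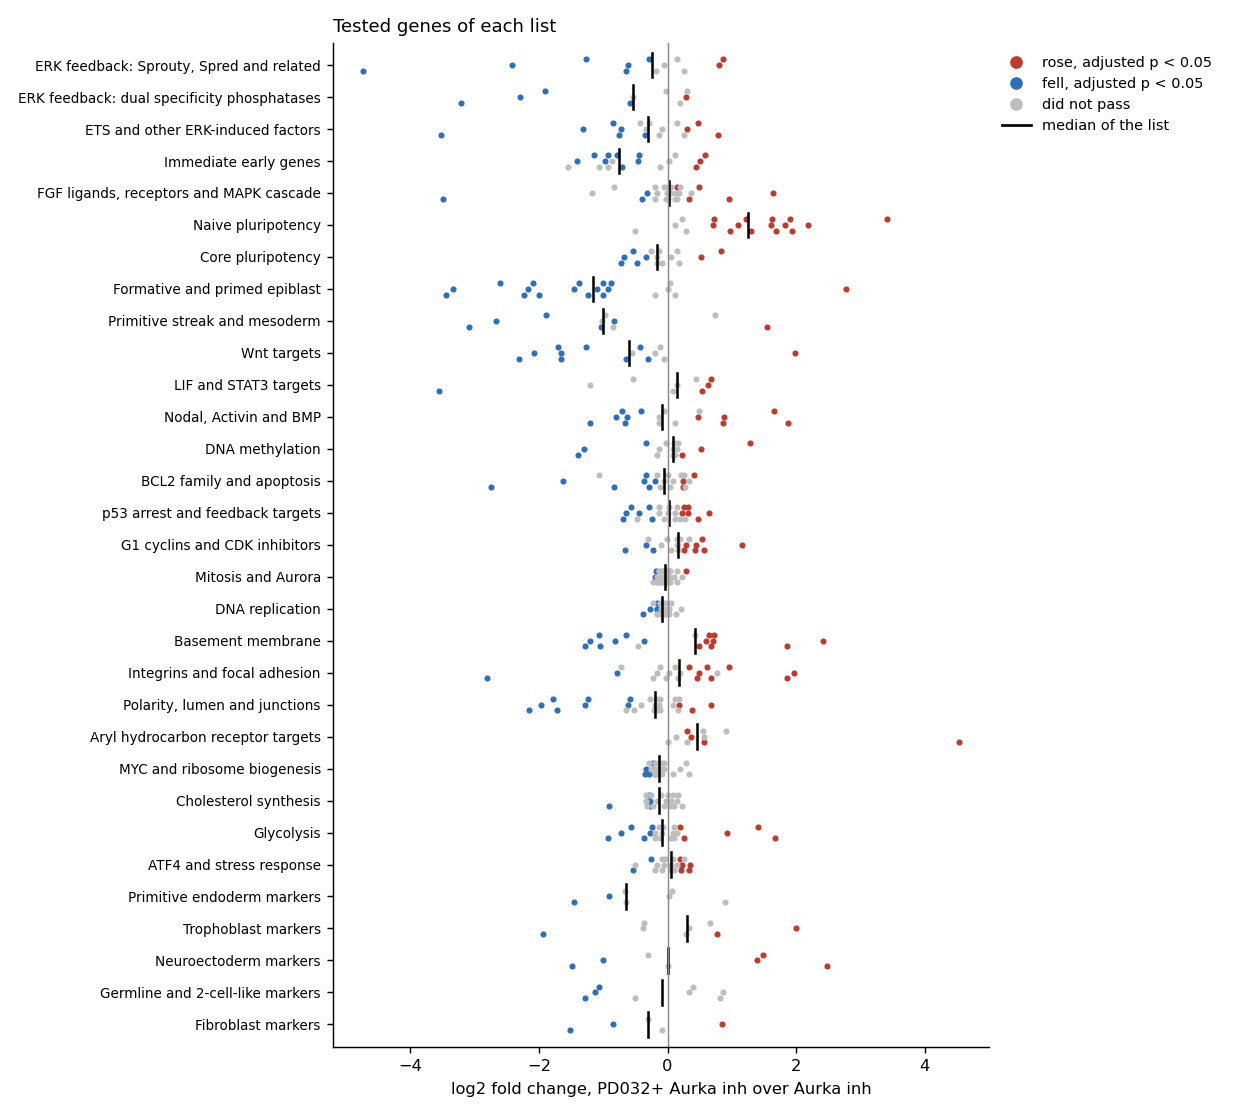
Log2 fold change, the combination over Aurka inh, of every tested gene in 31 gene lists, one point per gene, coloured by whether it rose, fell or did not pass at an adjusted p under 0.05, with a black bar at the median of each list. Naive genes lie mostly right of 0 (median 1.25), formative genes mostly left of 0 (median -1.16), and mitosis genes close to 0 (median -0.04).

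ERK feedback genes were lower in the combination, but not all of them. Of 12 tested Sprouty, Spred and related genes 6 fell and 2 rose, against 13.1% lower and 14.1% higher among all genes, with a list median of -0.23. The blocked fit gave 7 lower and 4 higher. Spry4, which restrains signalling from receptor kinases to Ras, had 0.46, 0.737 and 0.753 CPM in the combination, against 16, 19.7 and 16.4 CPM in Aurka inh. Every library of the combination was far under every Aurka inh library (log2 fold change -4.73, SE 0.24, edgeR adjusted p = 1.6e-06). It averaged 0.65 ± 0.165 CPM in the combination and 0.15 ± 0.113 CPM with PD032 alone (SD, n = 3 each), higher in the combination (log2 fold change 2.14, edgeR adjusted p = 0.0041). Spred3, a Spred family member that inhibits Ras signalling, had 1.79, 1.32 and 1.55 CPM in the combination, against 9.39, 6.32 and 9.13 CPM in Aurka inh (log2 fold change -2.41, edgeR adjusted p = 3.0e-05). The stretch shown before its RefSeq start is the one with a single ETS core.

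Spry1, another Sprouty, fell to 8.22 ± 1.23 CPM in the combination, against 19.8 ± 1.33 CPM in Aurka inh (SD, n = 3 each; log2 fold change -1.27). Spred1, which recruits the Ras inactivator neurofibromin, fell to 108 ± 6.86 CPM in the combination, against 168 ± 7.86 CPM in Aurka inh (log2 fold change -0.64), and it was higher in the combination than with PD032 alone, at 48.1 ± 5.09 CPM (edgeR adjusted p = 2.8e-06). Spry2 fell by 0.29 on the log2 scale (edgeR adjusted p = 0.031), a call lost when any 1 of 4 libraries was left out, with adjusted p up to 0.11, and without the libraries numbered 2 (0.1). Il17rd, a membrane inhibitor of FGF signalling also called Sef, did not pass, at 93.8 ± 11.4 CPM in the combination and 85 ± 10.5 CPM in Aurka inh (edgeR adjusted p = 0.37, and 0.0086 with the replicate block, which gave a log2 fold change of 0.14). The 2 genes that rose were Lrig1 and Lrig3, leucine-rich membrane proteins of which Lrig1 promotes loss of receptor kinases from the cell surface. Lrig1 rose to 65.2 ± 2.04 CPM in the combination, against 35.9 ± 3.47 CPM in Aurka inh, and Lrig3 to 30.7 ± 3.96 CPM against 17.5 ± 3.39 CPM (edgeR adjusted p = 4.2e-05 and 0.002).

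Among the dual specificity phosphatases, enzymes that remove phosphate from MAP kinases, 4 of 9 tested genes fell and 1 rose, with a list median of -0.53. Dusp4, a nuclear phosphatase of ERK, had 8.04, 5.37 and 9.41 CPM in the combination, against 79.5, 55.5 and 77.4 CPM in Aurka inh. It lay 9.24-fold lower in the combination (log2 fold change -3.21, SE 0.19, edgeR adjusted p = 3.8e-06). Dusp6, the cytoplasmic ERK phosphatase whose promoter stretch is shown, lies at chr10:99263231-99267489 (mm10) and had 11.9, 11.6 and 11.7 CPM in the combination, against 45, 48.2 and 39.4 CPM in Aurka inh. The libraries of the combination hardly differed from each other, and the fold change was -1.91 on the log2 scale (SE 0.11, edgeR adjusted p = 3.5e-06). For both genes the level in the combination was not told apart from that with PD032 alone, at 6.76 ± 0.313 CPM for Dusp4 and 12.1 ± 1.7 CPM for Dusp6 (edgeR adjusted p = 0.53 and 0.82). Dusp9, which also acts on ERK, fell to 2.83 ± 0.574 CPM in the combination, against 13.8 ± 3.39 CPM in Aurka inh, and in the combination it was also under its level with PD032 alone, 9.57 ± 1.43 CPM (edgeR adjusted p = 1.4e-04). Dusp7, a cytoplasmic phosphatase of ERK, fell 1.51-fold. Dusp16, which prefers the stress kinases JNK and p38, rose by a log2 fold change of 0.29 (edgeR adjusted p = 0.022), and lost the call without library 1 of the combination (0.094) or library 2 of Aurka inh (0.051).

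Of 16 ETS and other factors induced by ERK, 6 fell and 3 rose, with a median of -0.31. Their log2 fold changes ran from -3.52 to 0.79. Etv4, an ETS factor of the PEA3 family, had 3.95, 4.05 and 3.97 CPM in the combination, against 44.3, 49.4 and 44.2 CPM in Aurka inh. The groups were separated more than 10-fold in every library (log2 fold change -3.52, SE 0.1, edgeR adjusted p = 3.8e-08), and the combination was still above PD032 alone, which averaged 1.45 ± 0.237 CPM (edgeR adjusted p = 1.9e-05). Its relatives moved less. Etv1 fell to 18.3 ± 0.832 CPM in the combination, against 30.1 ± 1.27 CPM in Aurka inh, and Etv5 to 347 ± 24.5 CPM against 443 ± 26.4 CPM (log2 fold changes -0.72 and -0.35, edgeR adjusted p = 4.7e-04 and 0.003). Both were higher in the combination than with PD032 alone, at 6.28 ± 0.94 CPM for Etv1 and 286 ± 8.86 CPM for Etv5 (edgeR adjusted p = 2.7e-06 and 0.0072). Myc, a growth regulator, fell to 6.04 ± 1.02 CPM in the combination, against 14.9 ± 0.928 CPM in Aurka inh. Tnfrsf12a, the receptor of the cytokine TWEAK, fell by 0.84 on the log2 scale. Ccnd1, the cyclin D1 gene, had 216, 219 and 214 CPM in the combination and 240, 229 and 218 CPM in Aurka inh, which overlapped (edgeR adjusted p = 0.43).

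**Figure D2:**
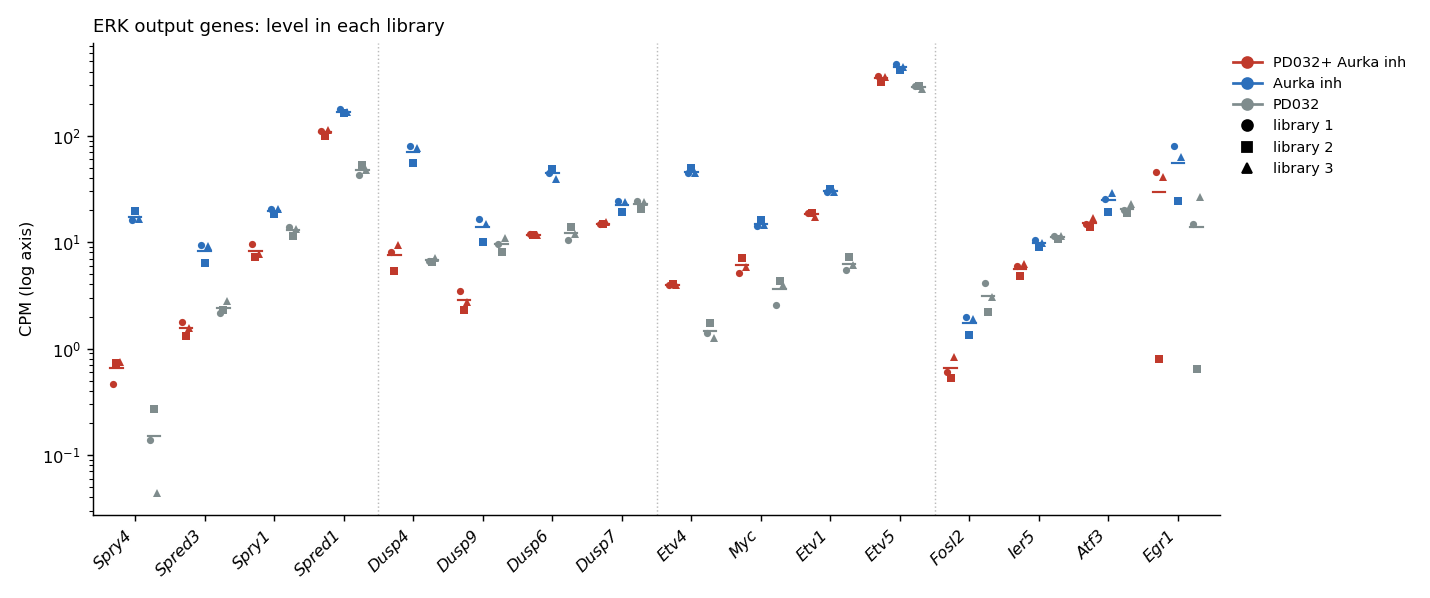
Level of 16 ERK output genes in each library, in CPM on a log axis, for the combination (red), Aurka inh (blue) and PD032 (grey); circles, squares and triangles are libraries 1, 2 and 3, and bars are means. Dotted lines part Sprouty and Spred genes, phosphatases, ETS and other factors, and immediate early genes. Egr1 is low in the square of each group. The genes were picked, and all but Egr1 passed as lower in the combination than in Aurka inh. Genes of these lists that rose, such as Lrig1, Lrig3, Klf6 and Nr4a1, are not shown.

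The immediate early genes, which respond to ERK within minutes, moved both ways with more falls: 8 of 18 tested fell, 3 rose, and the median was -0.75. The blocked fit gave 11 lower and 4 higher, as did the fit without the libraries numbered 2. Fosl2, an AP-1 component, fell to 0.653 ± 0.163 CPM in the combination, against 1.74 ± 0.351 CPM in Aurka inh. Ier5, an immediate early nuclear protein, and Atf3, a stress-induced bZIP factor, fell by 0.79 and 0.71 on the log2 scale. Srf, the serum response factor that binds many of these promoters, fell to 55.9 ± 7.15 CPM in the combination, against 77.1 ± 6.39 CPM in Aurka inh (edgeR adjusted p = 0.0093). Klf6, a zinc finger factor, and Nr4a1, an orphan nuclear receptor, rose by 0.51 and 0.58. Egr1, the classical immediate early zinc finger factor, had 45.9, 0.789 and 41.2 CPM in the combination, against 80.4, 24.3 and 62.6 CPM in Aurka inh. Library 2 was the lowest of each group, as it was with PD032 alone (14.8, 0.644 and 26.5 CPM), and within each number the combination was lower. Egr1 did not pass without the block (edgeR adjusted p = 0.52) and passed with it (0.0064) or without the libraries numbered 2 (0.0072). Fosb, another AP-1 gene, was likewise lowest in library 2 of both groups, with 2.71, 0.0526 and 1.42 CPM in the combination, against 6.66, 0.702 and 4.85 CPM in Aurka inh (edgeR adjusted p = 0.29, and 1.8e-04 with the block). It also passed without the libraries numbered 2 (0.002) and with no filter on low counts (0.027).

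Of 26 tested FGF ligands, receptors and members of the MAP kinase cascade, 5 rose and 3 fell (30.8%, against 27.2% over all genes), with a median of 0.03, and the blocked fit gave 10 and 7. Fgf4, the autocrine ligand of these cells, had 161, 181 and 150 CPM in the combination, against 80.8, 98.3 and 73.7 CPM in Aurka inh. It rose 1.95-fold with no overlap (edgeR adjusted p = 2.6e-04), to a level not told apart from that with PD032 alone, 170 ± 19.3 CPM (edgeR adjusted p = 0.75). Fgf17, a ligand related to FGF8, rose to 3.69 ± 1.01 CPM in the combination, against 1.2 ± 0.512 CPM in Aurka inh. Fgf15, a ligand of the endocrine FGF subfamily, fell to 7 counts over the 3 combination libraries, against 72 counts in Aurka inh (log2 fold change -3.49, edgeR adjusted p = 4.0e-04). Mapk3, which encodes ERK1, fell by 0.32 on the log2 scale, while the adaptor gene Grb2 rose by 0.34.

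Naive pluripotency factors were higher in the combination than in Aurka inh. Of 18 tested, 14 rose and none fell, against 14.1% higher and 13.1% lower over all genes, and the median was 1.25. Nanog, a homeobox factor of the naive network, had 391, 400 and 366 CPM in the combination, against 114, 148 and 101 CPM in Aurka inh (log2 fold change 1.68, SE 0.12, edgeR adjusted p = 1.1e-05). Its reads may be shared with pseudogene copies. Prdm14, which represses FGF receptor signalling and DNA methylation genes, had 19.9, 20.4 and 19.3 CPM in the combination, against 1.94, 3.06 and 0.739 CPM in Aurka inh. The rise was 10.6-fold, and the libraries varied more in Aurka inh than in the combination. Tbx3, a T-box factor downstream of LIF, had 87.4, 113 and 87.3 CPM in the combination, against 19.2, 38.2 and 18.3 CPM in Aurka inh, and Nr0b1, an orphan nuclear receptor, had 79.7, 82.5 and 79.7 CPM against 18, 32.5 and 14.6 CPM. Library 2 was the highest of Aurka inh for all 4 of these genes. Without the libraries numbered 2, 17 of the 18 naive genes rose.

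Tfcp2l1, a factor that sustains self-renewal, rose 3.52-fold, Tcl1, an activator of AKT, 4.54-fold, Esrrb, an orphan nuclear receptor, 3.06-fold and Klf4, a Krüppel-like factor, 3.04-fold. The level reached in the combination was above that with PD032 alone for most of the naive genes named: Nanog averaged 386 ± 17.6 CPM in the combination and 122 ± 8.9 CPM with PD032, Esrrb 469 ± 21.9 and 179 ± 13 CPM, Klf4 48.5 ± 0.966 and 14.4 ± 2.27 CPM, and Tbx3 95.8 ± 14.6 and 5.68 ± 1.97 CPM (SD, n = 3 each; edgeR adjusted p from 2.0e-06 to 1.7e-05). Nr0b1 had 80.6 ± 1.66 CPM in the combination and 61.9 ± 13.2 CPM with PD032 and did not pass without the block (edgeR adjusted p = 0.22), but passed with it (0.0026). Tdh, the threonine dehydrogenase on which mouse embryonic stem cells depend, had 687 ± 28.8 CPM in the combination and 587 ± 96.9 CPM in Aurka inh. It did not pass (edgeR adjusted p = 0.14), but passed with the block (3.5e-04), without library 2 of Aurka inh (0.0067) and without the libraries numbered 2 (4.9e-04).

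The core factors shared by naive and formative cells moved both ways, with 2 of 15 higher, 5 lower and a median of -0.16, and 4 and 10 in the blocked fit. Sox2 had 460, 493 and 472 CPM in the combination, against 244, 342 and 215 CPM in Aurka inh (log2 fold change 0.83, edgeR adjusted p = 0.0015). Pou5f1, the Oct4 gene, which has pseudogene copies, had 708 ± 77.3 CPM in the combination and 754 ± 66 CPM in Aurka inh, which overlapped (edgeR adjusted p = 0.57, and 0.031 lower with the block). Lin28a, an RNA-binding protein that blocks let-7 maturation, fell to 415 ± 14.8 CPM in the combination, against 664 ± 32.6 CPM in Aurka inh. Utf1, a chromatin factor of pluripotent cells, fell to 272 ± 5.89 CPM in the combination, against 397 ± 6.46 CPM in Aurka inh.

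Formative and primed genes were lower: 15 of 20 tested fell and 1 rose, with a median of -1.16. Pou3f1, the Oct6 gene and an early formative marker, had 3.63, 2.31 and 3.51 CPM in the combination, against 39.4, 26 and 38.6 CPM in Aurka inh. It fell 10.9-fold (edgeR adjusted p = 2.7e-06). Fgf5, the standard epiblast marker, had 0.322, 0.21 and 0.335 CPM in the combination, against 2.77, 1.21 and 4.91 CPM in Aurka inh, so both groups carried little of it. Otx2, which directs the exit from the naive state, had 53, 55.4 and 53.2 CPM in the combination, against 105, 107 and 111 CPM in Aurka inh, an even 2-fold step (SE 0.052 on the log2 scale, edgeR adjusted p = 2.2e-06). Sall2, a zinc finger factor, fell 6.08-fold, Grhl2, which opens epithelial enhancers in formative cells, 4.68-fold and Pim2, a survival kinase, 4.49-fold. These genes lay under their level with PD032 alone as well: Pou3f1 averaged 3.15 ± 0.728 CPM in the combination and 82.8 ± 5.18 CPM with PD032, Fgf5 0.289 ± 0.0683 and 18.9 ± 2.17 CPM, and Otx2 53.9 ± 1.34 and 224 ± 6 CPM (edgeR adjusted p = 1.0e-07, 3.4e-06 and 5.0e-09). The gene that rose was Ncam1, a neural cell adhesion molecule, with 18.3, 12.7 and 20.2 CPM in the combination, against 2.17, 3.76 and 1.69 CPM in Aurka inh.

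**Figure D3:**
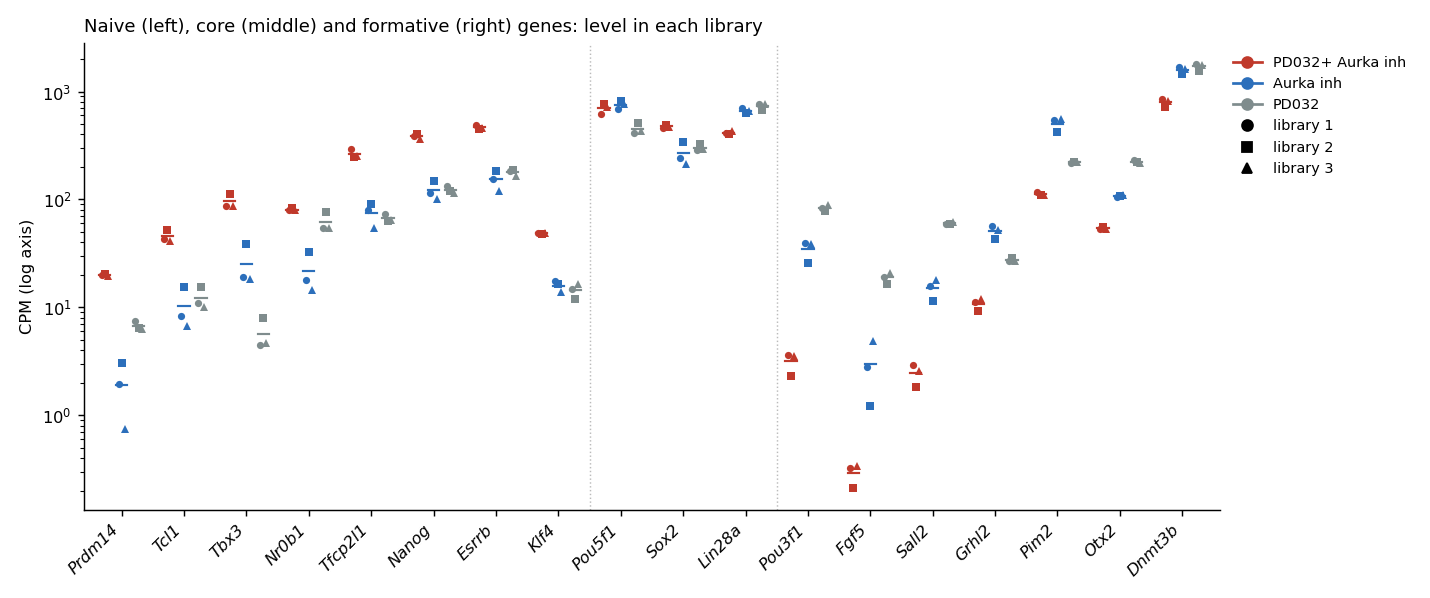
Level of 8 naive genes, 3 core genes and 7 formative genes (left to right, parted by dotted lines) in each library, in CPM on a log axis, for the combination (red), Aurka inh (blue) and PD032 (grey); symbols are libraries 1, 2 and 3, and bars are means. The red naive points lie above blue and the red formative points under both other groups, as for Otx2 at 53 to 55.4 CPM.

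Dnmt3b, a de novo DNA methyltransferase counted in the formative list, had 851, 716 and 815 CPM in the combination, against 1687, 1449 and 1628 CPM in Aurka inh (2-fold lower, edgeR adjusted p = 3.5e-05). Dnmt3l, its catalytically inactive partner, fell 2.46-fold. Of 15 genes in the separate list of methylation and demethylation factors, 3 rose and 3 fell, with a median of 0.09, and the blocked fit gave 6 and 5. Its members on opposite sides included 2 dioxygenases that oxidise methylcytosine: Tet2 rose to 39.7 ± 4.43 CPM in the combination, against 16.4 ± 2.5 CPM in Aurka inh, while Tet3 fell to 6.61 ± 0.285 CPM against 17.3 ± 4.33 CPM (edgeR adjusted p = 1.5e-04 and 3.6e-04). Tet1, the most abundant of this family, also rose, to 395 ± 66.9 CPM against 275 ± 41.3 CPM (edgeR adjusted p = 0.021). Its libraries overlapped between the groups, and the call was lost in 3 of 18 other settings.

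Of 20 listed genes of the primitive streak and early mesoderm, only 10 had enough counts to be tested, and the list was low in both groups. Of the 10 tested, 5 were lower in the combination and 1 was higher, with a median of -1.0. T, the Brachyury gene, had 0.919, 0.789 and 1.21 CPM in the combination, against 8.65, 6.96 and 9.39 CPM in Aurka inh (log2 fold change -3.08, edgeR adjusted p = 7.4e-06). Its level in the combination was above the 0.124 ± 0.0432 CPM with PD032 alone (edgeR adjusted p = 1.6e-04). Eomes, a T-box factor, fell 1.77-fold. Evx1, a homeobox gene of the posterior streak, had 0.23, 0.105 and 0.293 CPM in the combination, against 1.34, 1.15 and 1.69 CPM in Aurka inh (6.34-fold lower). It averaged 0.0299 CPM with PD032 alone, so it passed the count filter through Aurka inh. Such a filter favours falls, in this gene and in the list median. The gene that rose was Snai2, a repressor of epithelial genes, at 1.45 ± 0.175 CPM in the combination, against 0.481 ± 0.199 CPM in Aurka inh. In bulk RNA, fewer cells with these genes and less RNA per cell cannot be told apart.

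Targets of Wnt, the pathway that CHIR99021 activates by blocking GSK3, fell in 9 of 14 cases and rose in 1. Among all genes 13.1% fell and 14.1% rose, and the median of the list was -0.59. Sp5, a transcription factor induced directly by beta-catenin, had 4.46, 3.42 and 4.81 CPM in the combination, against 13, 13 and 14.3 CPM in Aurka inh, and had no count in any library with PD032 alone. Ccnd2, the cyclin D2 gene, had 5.98, 4.73 and 5.27 CPM in the combination, against 30.8, 16.8 and 31.8 CPM in Aurka inh (log2 fold change -2.31, edgeR adjusted p = 1.7e-04). Nkd1, a feedback inhibitor, fell 4.21-fold. The general reporter Axin2 moved little, at 80.4 ± 2.42 CPM in the combination and 98.7 ± 4.84 CPM in Aurka inh (log2 fold change -0.30, edgeR adjusted p = 0.016), and lost its call without library 3 of the combination (0.071) or library 1 of Aurka inh (0.053). It stood far above PD032 alone, at 4.14 ± 0.627 CPM (edgeR adjusted p = 2.3e-09). The riser was Notum, which inactivates Wnt ligands, with 51.8, 51 and 55.7 CPM in the combination, against 11.5, 17.4 and 11.6 CPM in Aurka inh (edgeR adjusted p = 1.4e-05).

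Of 9 tested LIF and STAT3 genes, 3 rose and 1 fell, with a median of 0.14 and 3 lower in the blocked fit. Lifr and Il6st, the 2 chains of the LIF receptor, rose to 87.3 ± 2.63 and 235 ± 12.2 CPM in the combination, against 56.6 ± 7.9 and 147 ± 15.4 CPM in Aurka inh (edgeR adjusted p = 0.0012 and 1.6e-04), and Stat3 rose by a log2 fold change of 0.53. Socs3, the feedback inhibitor that STAT3 induces, had 0.184, 0.368 and 0.167 CPM in the combination, against 3.01, 2.23 and 3.11 CPM in Aurka inh (log2 fold change -3.55, SE 0.6, edgeR adjusted p = 0.0015). Of 16 Nodal, Activin and BMP genes 5 rose and 6 fell. Id4, an inhibitor of basic helix-loop-helix factors, Lefty2, which blocks Nodal, and Smad7, which inhibits SMAD signalling, rose 3.69-, 3.15- and 1.82-fold. Bmp7, a BMP ligand, and Id2, a relative of Id4, fell to 2.11 ± 0.553 and 0.647 ± 0.0583 CPM in the combination, against 4.87 ± 1.35 and 1.12 ± 0.273 CPM in Aurka inh (edgeR adjusted p = 0.04 and 0.03). Each lost the call when any 1 of 5 libraries was left out, with adjusted p up to 0.13 for Bmp7 and 0.16 for Id2, and in 2 other settings for Bmp7 and 4 for Id2. The ligand gene Nodal, chosen after its values were seen, fell by 0.63 on the log2 scale (edgeR adjusted p = 0.002).

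The basement membrane list had the highest share of called genes among the 31 lists, with 8 of 17 tested up and 7 down (88.2%, against 27.2% over all genes). The laminin chains moved in both directions. Nid1, which links laminin to collagen IV, had 154, 195 and 136 CPM in the combination, against 27.8, 42.1 and 21.3 CPM in Aurka inh (log2 fold change 2.42, SE 0.22, edgeR adjusted p = 4.3e-05). Among the laminin chains, Lama1, the alpha chain of the early embryonic basement membrane, had 23, 22.7 and 19.4 CPM in the combination, against 6.47, 6.96 and 4.64 CPM in Aurka inh. Lama3 and Lamb1 went the other way, with 1.54 ± 0.139 and 38.3 ± 2.12 CPM in the combination, against 3.76 ± 0.221 and 80.1 ± 14.8 CPM in Aurka inh (edgeR adjusted p = 3.2e-04 and 3.9e-04). Col4a1, a collagen IV chain, fell to 3.3 ± 0.06 CPM in the combination, against 6.76 ± 1.81 CPM in Aurka inh. Fn1, the fibronectin gene, was among the 5 most abundant risers, with 1515, 1218 and 1338 CPM in the combination, against 1014, 857 and 808 CPM in Aurka inh.

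Of 20 integrin and focal adhesion genes, 8 rose and 2 fell, with a median of 0.18 (10 and 5 in the blocked fit). The largest change was a fall: Zyx, the zyxin gene, whose protein sits on actin at focal adhesions and responds to tension, had 13.1, 11.5 and 13 CPM in the combination, against 94.9, 74.1 and 92.7 CPM in Aurka inh (log2 fold change -2.80, SE 0.12, edgeR adjusted p = 6.1e-07). With PD032 alone it had 9.96 ± 1.37 CPM, not told apart from the combination without the block (edgeR adjusted p = 0.068) and lower than it with the block (0.0015). Itga9, an integrin chain, rose to 8.09 ± 1.66 CPM in the combination, against 2.23 ± 0.354 CPM in Aurka inh, and Itgav, which binds fibronectin and vitronectin, to 57.9 ± 3.19 CPM against 36.2 ± 2.83 CPM (edgeR adjusted p = 9.3e-05 and 1.9e-04).

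Among 26 tested genes of polarity, the lumen and cell junctions, 8 fell and 3 rose, with a median of -0.20. The blocked fit gave 15 lower and 5 higher, and leaving out the libraries numbered 2 gave 15 and 3. Podxl, the sialomucin podocalyxin that coats the lumen of epiblast rosettes, had 35.7, 18.7 and 34.1 CPM in the combination, against 159, 87.2 and 151 CPM in Aurka inh. Library 2 was the lowest in both groups, the groups did not overlap, and the fall was 4.48-fold (edgeR adjusted p = 2.3e-04). The combination was also under PD032 alone, at 376 ± 42.8 CPM (edgeR adjusted p = 3.7e-06). The claudins Cldn6 and Cldn7, which seal tight junctions, fell 3.43- and 3.92-fold, Cgn, a tight junction plaque protein, 3.27-fold, and the adhesion molecule gene Epcam 2.37-fold, to 83.1 ± 8.53 CPM in the combination, against 197 ± 10.3 CPM in Aurka inh. Esrp1, which directs epithelial splicing, fell to 52.7 ± 12.3 CPM in the combination, against 128 ± 14.2 CPM in Aurka inh.

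Apoptosis genes were mixed, with 7 of 21 BCL2 family and related genes down and 3 up, and a median of -0.06 (7 and 6 in the blocked fit). Pmaip1, which encodes the BH3-only protein NOXA, had 10.6, 11.5 and 11.9 CPM in the combination, against 71.6, 90.2 and 65.3 CPM in Aurka inh (log2 fold change -2.74, SE 0.14, edgeR adjusted p = 1.6e-06). With PD032 alone it had 9.31 ± 1.36 CPM, a difference from the combination that did not pass without the block (edgeR adjusted p = 0.16) and passed with it (0.044). Bcl2l11, which encodes BIM, an activator of apoptosis that ERK marks for degradation as a protein, fell to 21.1 ± 2.87 CPM in the combination, against 37.3 ± 5.03 CPM in Aurka inh, and Tnfrsf10b, a death receptor, by 0.34 on the log2 scale. Among 23 p53 targets 6 rose and 6 fell, with a median of 0.02, and the blocked fit gave 10 and 8. Cdkn1a, which encodes the CDK inhibitor p21, fell to 142 ± 10.7 CPM in the combination, against 194 ± 8.22 CPM in Aurka inh. Plk2, a p53-induced kinase, fell by 0.69 and Rrm2b, a ribonucleotide reductase subunit, rose by 0.65 on the log2 scale.

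Without the block, mitosis genes changed little between the groups, and the DNA replication genes that were called were all lower, by small amounts. Of 39 mitosis genes 1 rose and 2 fell (7.69%, against 27.2% over all genes), with a median of -0.04. The blocked fit called 4 higher and 12 lower. Aurka had 181, 184 and 179 CPM in the combination, against 194, 202 and 210 CPM in Aurka inh, and did not pass (edgeR adjusted p = 0.063). It passed with the block (0.0028) and in 4 of the other 17 settings. Plk1, a mitotic kinase that Aurora A activates, fell by 0.18 on the log2 scale (edgeR adjusted p = 0.02), and lost the call when any 1 of 4 libraries was left out, with adjusted p up to 0.079, and with no filter on low counts (0.17). Anln, the cytokinesis scaffold anillin, rose by 0.29. Mki67, a marker of cycling cells, had 413 ± 19.8 CPM in the combination and 406 ± 16.6 CPM in Aurka inh (edgeR adjusted p = 0.84). Of 26 replication genes 5 fell, among them the clamp loader gene Rfc3 by 0.38, and none rose. The 19.2% called were all lower, against 13.1% lower and 14.1% higher over all genes. The blocked fit gave 13 lower and 2 higher, against 24.5% lower and 23.9% higher over all genes.

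Among 20 cyclins, CDK inhibitors and other regulators of G1, 7 rose and 3 fell, with a median of 0.16 (10 and 5 in the blocked fit). Cdkn2a, the Ink4a/Arf locus, had 29.1, 38.2 and 35.9 CPM in the combination, against 13, 19.6 and 14 CPM in Aurka inh. Cdkn1b, which encodes the CDK inhibitor p27, rose to 105 ± 5.33 CPM in the combination, against 77.9 ± 2.92 CPM in Aurka inh, and Ccnd3, the cyclin D3 gene, to 77.8 ± 5.79 CPM against 53.9 ± 2.97 CPM. Ccne1, the cyclin E1 gene, fell to 107 ± 11 CPM in the combination, against 169 ± 14.8 CPM in Aurka inh (edgeR adjusted p = 3.3e-04). The list of MYC targets and ribosome biogenesis had 5 of 25 down (20%, against 13.1% over all genes) and none up. Its median was -0.13. The blocked fit gave 19 down and 2 up, against 24.5% lower and 23.9% higher over all genes. Odc1, which starts polyamine synthesis, and Srm, spermidine synthase, fell by 0.35 and 0.34.

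Glycolytic genes also divided, with 5 of 22 up and 6 down. Slc2a3, the glucose transporter GLUT3, had 723, 597 and 662 CPM in the combination, against 221, 223 and 180 CPM in Aurka inh (log2 fold change 1.67, SE 0.13, edgeR adjusted p = 1.4e-05). Hk1, hexokinase 1, rose to 127 ± 13.2 CPM in the combination, against 48.2 ± 4.59 CPM in Aurka inh, and Pfkp, a phosphofructokinase, to 701 ± 42.6 CPM against 369 ± 40.2 CPM. Ldha, lactate dehydrogenase A, fell to 946 ± 124 CPM in the combination, against 1557 ± 174 CPM in Aurka inh, and Pfkl, the liver-type phosphofructokinase, by 0.57 on the log2 scale. The median of the list was -0.08. Of 22 cholesterol synthesis genes 5 fell and none rose (12 and 5 in the blocked fit). The 22.7% called were all lower, against 13.1% lower and 14.1% higher over all genes. With the block, the shares over all genes were 24.5% lower and 23.9% higher. Among 20 genes of the ATF4 and stress response, 5 rose and 2 fell (9 and 6 in the blocked fit), 35% against 27.2% over all genes. Asns, asparagine synthetase, rose to 1359 ± 64.3 CPM in the combination, against 1070 ± 53.5 CPM in Aurka inh. Chac1, which degrades glutathione, rose by 0.34, and Ddit4, an mTORC1 inhibitor, fell to 486 ± 28 CPM against 700 ± 51.9 CPM.

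**Figure D4:**
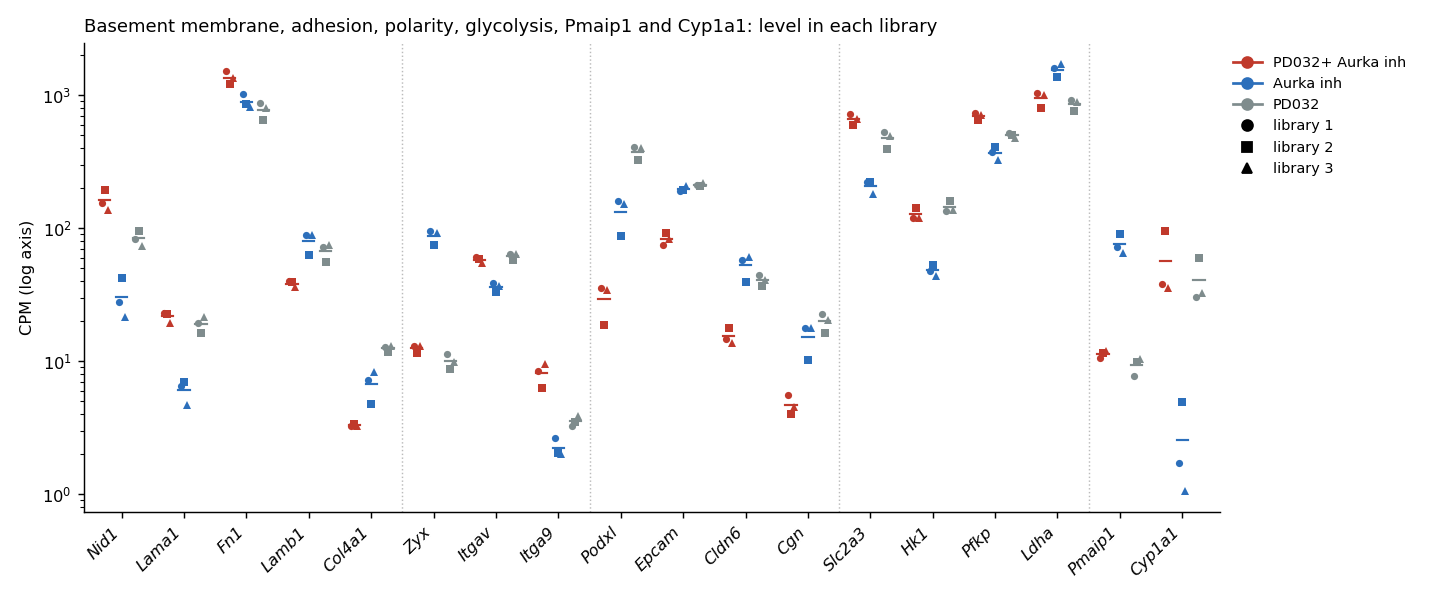
Level of 18 genes in each library, in CPM on a log axis, for the combination (red), Aurka inh (blue) and PD032 (grey); symbols are libraries 1, 2 and 3, bars are means, and dotted lines part basement membrane, adhesion, polarity, glycolysis and the pair Pmaip1 and Cyp1a1. Red lies above blue for Nid1, Lama1 and Slc2a3 and under it for Zyx, Podxl and Pmaip1.

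Cyp1a1, an oxidase induced through the aryl hydrocarbon receptor by foreign compounds, had 38.2, 95.5 and 35.3 CPM in the combination, against 1.71, 4.91 and 1.06 CPM in Aurka inh. Library 2 was the highest in both groups, as with PD032 alone (30.5, 59.2 and 32.7 CPM), and the rise was 23.1-fold (log2 fold change 4.53, SE 0.57, edgeR adjusted p = 2.9e-04, and 8.7e-10 without the libraries numbered 2). The difference between the combination and PD032 alone did not pass without the block (edgeR adjusted p = 0.43) and passed with it (8.1e-04). Of 10 tested targets of this receptor 4 rose and none fell, with a median of 0.45, and 7 rose in the blocked fit. Ahr, the receptor gene, rose to 18.5 ± 2.03 CPM in the combination, against 12.5 ± 0.6 CPM in Aurka inh, and Tiparp, its feedback inhibitor, by 0.36 on the log2 scale. Nqo1, a quinone reductase, had 63.5, 110 and 61 CPM in the combination, against 32, 63.6 and 29.6 CPM in Aurka inh, higher in the combination within each number. It did not pass in the main fit (edgeR adjusted p = 0.084) and passed with the block (1.0e-10). Without the block it passed when the libraries numbered 2 (4.1e-07) or library 2 of Aurka inh (0.014) were left out. It also passed with no filter on low counts (6.1e-05) and with all 15 libraries (0.022).

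**Figure D5:**
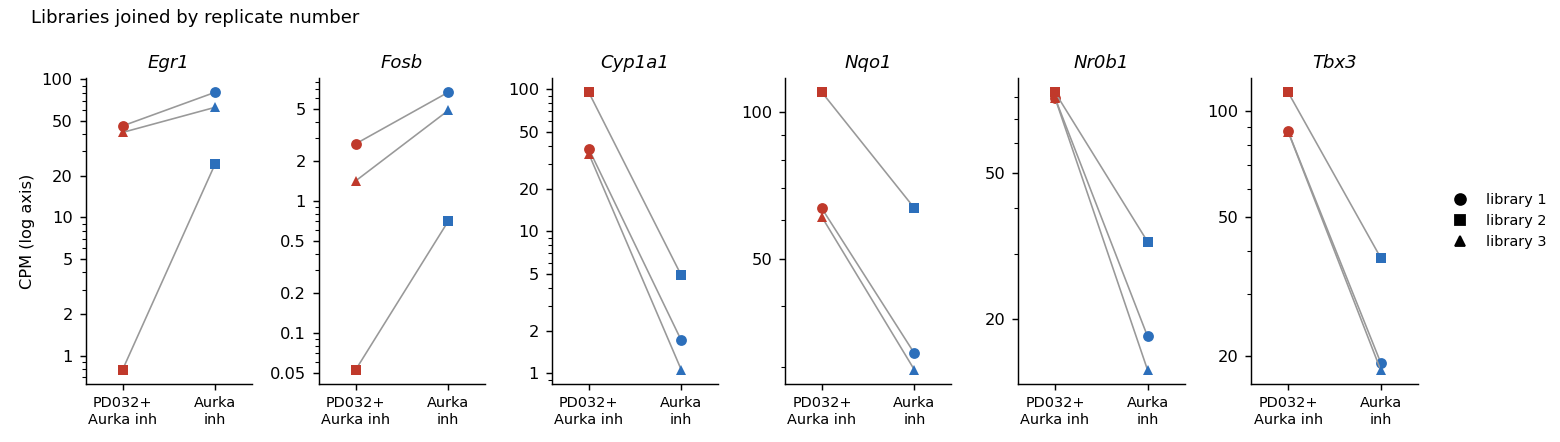
Level of 6 genes in CPM on a log axis, the combination on the left and Aurka inh on the right of each panel, with libraries of the same number joined by a line. Library 2 (square) is the lowest for Egr1 and Fosb and the highest for the other 4 genes in both groups, and all 18 lines run in the direction of their gene's mean difference.

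The genes with the largest changes among those reaching 10 CPM included several outside these lists. Among the 10 largest rises, Kit, the receptor of stem cell factor, had 73.5, 83.8 and 69.3 CPM in the combination, against 12.3, 16.4 and 10.7 CPM in Aurka inh. Jam2, a junctional adhesion molecule, rose 6.98-fold, Sfrp1, a secreted Wnt antagonist, 6.91-fold, Lrrc15, a leucine-rich membrane protein, 9.32-fold, Pla2g4e, a cytosolic phospholipase, 6.6-fold and Mme, the membrane peptidase neprilysin, 5.78-fold. Kit was also higher in the combination than with PD032 alone, at 75.5 ± 7.46 and 16.7 ± 0.526 CPM, whereas Sfrp1 was not told apart, at 95.1 ± 23.5 and 89.6 ± 12.6 CPM (edgeR adjusted p = 1.0e-06 and 0.81).

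Among the 10 largest falls, Ccdc194, a gene of unsettled role, had 0.644, 0.579 and 0.669 CPM in the combination, against 19.6, 15.3 and 18.7 CPM in Aurka inh (log2 fold change -4.81, SE 0.16, edgeR adjusted p = 9.1e-08). Epha1, an ephrin receptor, had 6.25, 8.73 and 8.57 CPM in the combination, against 95.9, 83.2 and 95.8 CPM in Aurka inh. Bst2, tetherin, which holds enveloped viruses at the cell surface, had 13.1, 13.2 and 13.4 CPM in the combination, against 96.6, 104 and 109 CPM in Aurka inh, with the smallest error among the 10 (SE 0.077). Enpp2, autotaxin, which makes lysophosphatidic acid, fell 7.15-fold, Pkdcc, a secreted tyrosine kinase, 8.18-fold and Slit3, an axon guidance ligand, 7.34-fold. Nasp, a histone chaperone and 1 of the 5 most abundant genes that fell, was at 1169 ± 71.6 CPM in the combination and 1464 ± 97.6 CPM in Aurka inh (log2 fold change -0.33).

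Markers of other cell types were low, and their part in the results was not tested. The 7 primitive endoderm markers summed to 1.29 to 1.58 CPM in the combination, against 2.23 to 2.82 CPM in Aurka inh, the 5 trophoblast markers to 8.09 to 13.2 against 6.12 to 13.8 CPM, and the 6 mesoderm markers to 6.66 to 8.79 against 17.9 to 22.4 CPM. The 6 neuroectoderm markers summed to 18.4 to 29.4 CPM in the combination, against 27.6 to 52.2 CPM in Aurka inh. The 7 fibroblast markers summed to 4.16 to 6.48 against 12.7 to 19.8 CPM, nearly all from Thy1, which fell 2.87-fold, with 6 under 1 CPM and Postn at 0. Of 7 tested genes in the wider neuroectoderm list 3 rose and 2 fell, with a median of 0.00. Pax6, a neural and eye factor, rose to 4.23 ± 1.81 CPM in the combination, against 0.747 ± 0.297 CPM in Aurka inh, and Tubb3, a neuronal tubulin, to 88 ± 4.23 CPM against 33.5 ± 0.803 CPM. Dll1, a Notch ligand, fell to 3.06 ± 0.681 CPM in the combination, against 8.51 ± 0.797 CPM in Aurka inh. Nes, the nestin gene, which made up most of the neuroectoderm marker sum, fell to 19.6 ± 3.91 CPM in the combination, against 39.6 ± 12.3 CPM in Aurka inh (edgeR adjusted p = 0.011), and lost the call without library 3 of Aurka inh (0.054). Among the other wider lists, Tfap2c, an AP-2 factor of naive cells and trophoblast, rose 3.98-fold, while Krt18, a keratin of simple epithelia, fell 3.85-fold. Vim, the vimentin gene, rose 1.81-fold, Mael, a germline piRNA factor, fell 2.43-fold, and Lrp2, an endocytic receptor of endoderm, fell 1.87-fold.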

How the data were processed

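Poly(A) RNA libraries of mouse E14 cells were used, 3 for each of PD032+ Aurka inh, Aurka inh and PD032, with groups taken from the labels. The authors deposited whole-number counts per gene for 15 libraries, and a second deposited table with normalized log2 values, used here for an alternative only. STAR, DESeq2 and the build mm10 are named in the submitters' processing notes. Their versions, how reads were assigned to genes, and whether strand was used are not given in the sources available, so reads of overlapping or antisense genes and of pseudogene copies cannot be told apart.

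Of 49585 genes, 49326 matched GENCODE M21 by identifier, and filterByExpr of edgeR kept 14837. Counts were scaled by TMM factors, and one quasi-likelihood model with a term per group was fitted to the 9 inhibitor libraries (R 4.3.3, edgeR 4.0.16, limma 3.58.1, DESeq2 1.42.0). The 9 were chosen because the biological coefficient of variation was 8.83%, 11% and 9.25% in the combination, Aurka inh and PD032, but 4.53% and 1.76% in the other 2 groups of the series. Calls used p-values adjusted by Benjamini-Hochberg over all tested genes, at 0.05. CPM are counts scaled to a TMM-adjusted total of 1000000 and fold changes come from the fit. Totals of 16010904 to 24202544 counts set the precision; intervals were not computed, and errors are SD over 3 libraries or the SE of the fit. Replicates differed by more than counting error (chi-squared per degree of freedom 4.93 to 18.4), so none was counted as a duplicate. The combination libraries also enter the comparison with PD032, a contrast of the same fit whose adjusted p-values are given for named genes only. Results of both comparisons are therefore not independent, and they were not correlated or overlapped.

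Same-numbered libraries of the combination and Aurka inh deviated together (r = 0.348, 0.436 and 0.186 across genes). Unlike numbers had r from -0.377 to 0.136. The highest of these joined library 3 of the combination with library 1 of Aurka inh, so pairing by number was weakest for library 3. A fit with replicate number as a block was run beside the unblocked one. The 31 lists held 603 genes, of which 524 were tested. Members, lists and tests were chosen with earlier results of these data known. Named genes were the 10 largest rises and falls at a mean of at least 10 CPM with groups that do not overlap, the 5 most abundant genes called in each direction, up to 6 list members that passed and 3 that did not, members of the 4 ERK lists, and a fixed set. The fit was tested on simulated counts for known changes. Leaving out the 3 libraries numbered 2 was chosen after seeing the data; the other 17 alternatives covered scaling, filters, tools, the deposited log2 table, the libraries fitted, the block and each library left out. Upstream sequences are from RefSeq (GRCm38.p6), with gene coordinates from GENCODE M21 on mm10. Some genes that these rules name are not reported here.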

Additional observations from a re-analysis of the deposited data

How the results depend on the processing

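In all 18 other settings, no gene called in both changed sign. The replicate block raised the counts to 3547 higher and 3634 lower over 9 libraries, and to 3324 and 3551 over the 6 libraries of both groups; the cause was not tested. Leaving out 1 library gave 1398 to 2181 higher and 1211 to 2102 lower. The lowest counts came without library 3 of Aurka inh. The highest came without library 2 of Aurka inh and lay above the 2086 and 1944 of the main fit, though 1 library fewer was fitted in each case. The cause was not tested. The other settings stayed within 1.5 times, such as DESeq2 with 2107 and 2040 and all 15 libraries with 2837 and 2474. Of the 142 genes named apart from Tet1, 126 kept direction and call in each of the 18 settings that tested them. At a mean count of at least 50, 136 of them were tested. Apart from the calls gained that are given beside Il17rd, Egr1, Fosb, Tdh, Pou5f1, Aurka and Nqo1, the block over 9 libraries changed no other call of a named gene between the combination and Aurka inh; against PD032, printed calls changed for Nr0b1, Zyx, Pmaip1 and Cyp1a1. Mki67 ranged from -0.01 to 0.07 on the log2 scale with 1 library left out: it turned to -0.01 without library 1 of the combination and to -0.00 without library 2 of Aurka inh, and did not pass in any setting. The 3 libraries a group limit small changes, and depth limits genes such as Fgf5, Evx1, Socs3, Fgf15, Snai2 and Id2, which rest on few counts. It also limits the comparison with PD032 alone for Spry4 (42 counts in the combination against 9) and T (64 against 8).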

Other observations

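Calls were spread over the genome: the share of tested genes called ran from 24% on chromosome 19 to 30.6% on chromosome 10, and chromosome medians of the log2 fold change from -0.046 (chromosome 15) to 0.039 (chromosome 16). By annotated gene type, 29.8% of 13013 protein-coding genes were called, against 18.3% of 312 lincRNA genes and 2.98% of 570 processed pseudogenes. The log2 fold change between the combination and Aurka inh had a Spearman rho of 0.136 with exonic length over 10226 genes, a description across genes. Ribosomal protein genes took 4.53%, 5.39% and 4.87% of counts in the combination, against 4.63%, 5.74% and 5.27% in Aurka inh, and mitochondrial genes 2.4%, 2.36% and 2% against 2.32%, 2.85% and 1.99%.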
